A study of Homo sapiens with 4 samples.

Results

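The genes for subunits of glutamate, GABA and glycine receptors were followed in RNA-seq libraries of NT2 cells. The rule that picked them used gene symbols and no measured value, but it was set with earlier results of these data known. It took in the AMPA, kainate, NMDA and delta subunits, the metabotropic glutamate receptors, the GABA-A, rho and GABA-B subunits and the glycine receptor subunits. This gave 52 of the 62696 genes in each table, and all 52 were matched to GENCODE 29 by Ensembl identifier. NT2, also called NTERA-2, is a line of human embryonal carcinoma cells from which neurons can be made. The study set cells labelled HYDIN2 knockdown, with 3 libraries numbered as replicates 1 to 3, against cells with an empty vector, with 1 library whose genotype label reads Wild type. HYDIN2 copies part of the cilia gene HYDIN. The means of knockdown is not given in the sources used here. Nor is it given if the replicates were separate cultures, so the spread between them may be technical.

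Ionotropic receptors are ion channels built from several subunits and opened by their transmitter, while metabotropic glutamate and GABA-B receptors signal through G proteins. Glutamate receptors mostly excite neurons, and GABA-A and glycine receptors conduct chloride and mostly inhibit mature neurons. Subunit composition sets what a channel conducts, which drugs it binds and where it sits, and some subunits cannot form a working channel without a particular partner.

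Library totals were 25181737 counts for the empty vector and 62904698, 61627449 and 28552070 for replicates 1, 2 and 3. Levels are given as CPM, the count relative to a library total that was scaled by trimmed mean of M-values (TMM) factors, and always in the order empty vector, replicate 1, replicate 2, replicate 3. HYDIN2 itself stood at 0.5, 2.41, 1.88 and 0.352 CPM, so it was not lower in replicates 1 and 2, and the libraries are called labelled knockdown throughout. The headers of the deposited tables do not name HYDIN2 either: the column of the empty vector library is called NT2_Lacz_Control, and those of the others GKAP_KIF27_Set with the replicate number. They thus name another control and other genes than the labels do, and which of these the cells carried cannot be told from the sources used here. The 8 pluripotency markers were present in every library, with summed levels of 6750, 6680, 6930 and 3830 CPM, and DNMT3B among them was at least 2-fold lower in each labelled knockdown library. All 10 neuron markers were also detected in each library, with summed levels of 115, 175, 179 and 117 CPM, and MAP2 alone was at least 2-fold higher in each. The 6 neural progenitor markers summed to 170, 315, 294 and 276 CPM, with PAX6 and POU3F2 at least 2-fold higher in each, PAX6 at 0 in the empty vector library and HES5 at 0 in all 4. The 4 astrocyte markers summed to between 0.832 and 2.11 CPM, with S100B at 0 in replicate 3. The 5 fibroblast markers summed to 108, 168, 154 and 137 CPM, with DCN at 0 in all but replicate 2. The part of these markers in the results below was not tested, and in such bulk libraries fewer cells of a type and less RNA per cell cannot be told apart.

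Most of the 52 genes were detected, at levels that spanned several orders of magnitude. A count was present for 47, 50, 51 and 47 members. The mean level, taken over the empty vector library and the mean of the labelled knockdown libraries, reached 1 CPM in 30 members and 0.1 CPM in 46. Among the 62696 genes, 15880 and 26586 did so. Summed over the members, the levels were 454, 590, 590 and 591 CPM. GABRA5 made up 19.1% of the member counts with the empty vector (18.1% to 20.2%, 95% Clopper-Pearson interval), against 10.3%, 10.7% and 8.88% in the other libraries.

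Per kilobase of exon, which allows levels of different genes to be compared, the mean was highest for GABRA5 at 17.5 CPM, and GRIK3 stood at 3.91 and GRIK5 at 3.18. GABRQ (1.79), GRIN2A (1.56), GABRR1 (1.34), GABRP (1.21), GABRA3 (1.13), GABBR1 (1.07) and GRIN2D (1.01) also stood above 1 CPM per kilobase. Among the remaining classes, GRM2 stood at 0.809, GLRB at 0.523 and GRIA1 at 0.438 CPM per kilobase. By library, GABRA5 stood at 20.9, 14.7, 15.2 and 12.6 CPM per kilobase.

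**Figure D1:**
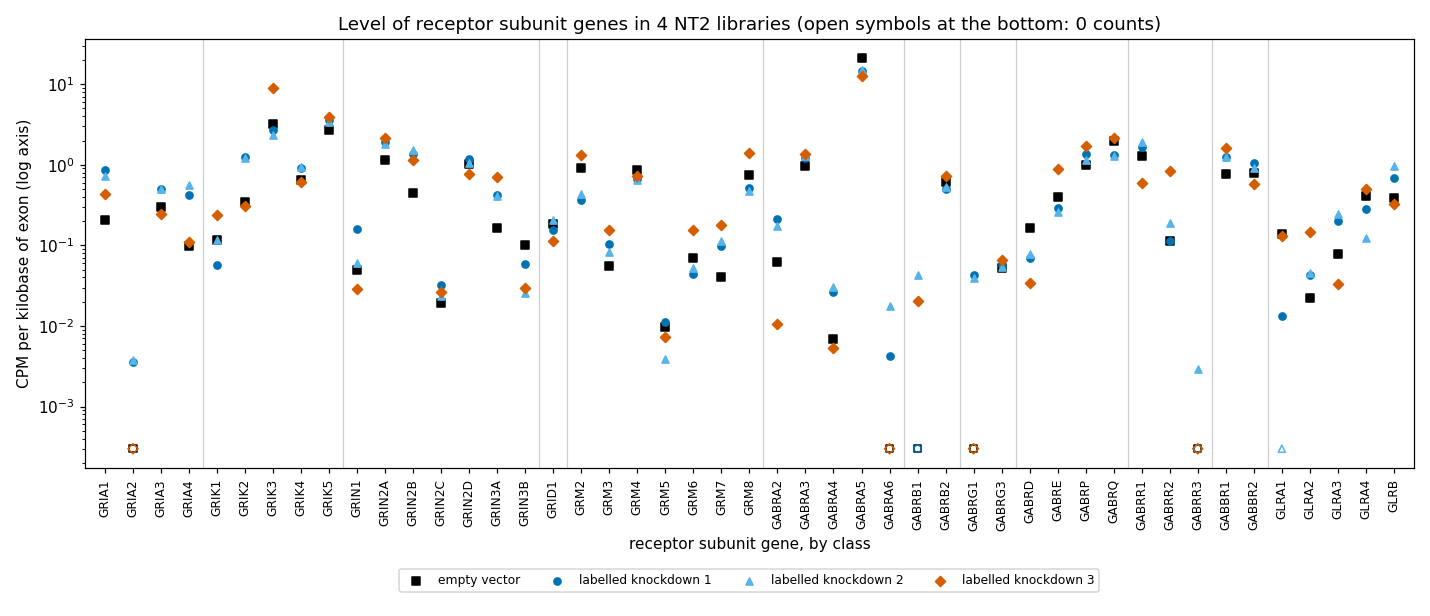
Level of 47 receptor subunit genes in CPM per kilobase of exon (log axis), ordered by receptor class, with 1 symbol per library and open symbols at the bottom for 0 counts. GABRA5 is at 12.6 or above in each library, and GRIA2, GABRA6, GABRB1, GABRG1 and GABRR3 had 0 counts in the empty vector library.

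Promoter windows of the members past 1 CPM held a GC box more often, and more CpG, than those of the other members. RefSeq promoter windows on GRCh38.p14, from 250 bases before to 50 after the gene start, were held for 38 members. A GC box, the letters GGGCGG on either strand, is the core of the sequence bound by SP1-family factors. It was found in 16 of 23 windows of members past 1 CPM (69.6%) and in 4 of 15 windows of the other members (26.7%). Among all 27305 windows of this length the share was 44.6%. The median ratio of observed to expected CpG was 0.88 for members past 1 CPM, 0.53 for the others and 0.58 for all windows. A TATAAA sequence on either strand stood in 0 of 23 and 1 of 15 of these windows, against 12% of all windows. These are descriptions of the windows, not sites of binding. The windows of all genes were not split at 1 CPM, so whether this difference is particular to the members was not tested. The 150 bases upstream of the start are printed for 3 members that the results below turn on and for GABRR3, which had 1 count in all 4 libraries together; capitals mark a GC box.
GRIN2B, GRCh38.p14 minus strand, chr12:13982135-13982284: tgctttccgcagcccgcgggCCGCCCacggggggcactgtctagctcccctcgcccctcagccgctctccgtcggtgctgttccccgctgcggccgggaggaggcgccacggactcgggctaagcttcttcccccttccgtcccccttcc
GRIN3A, GRCh38.p14 minus strand, chr9:101738648-101738797: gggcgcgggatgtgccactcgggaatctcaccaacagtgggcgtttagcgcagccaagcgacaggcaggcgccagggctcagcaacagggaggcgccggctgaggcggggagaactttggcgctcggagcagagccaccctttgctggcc
GRIK3, GRCh38.p14 minus strand, chr1:37034516-37034665: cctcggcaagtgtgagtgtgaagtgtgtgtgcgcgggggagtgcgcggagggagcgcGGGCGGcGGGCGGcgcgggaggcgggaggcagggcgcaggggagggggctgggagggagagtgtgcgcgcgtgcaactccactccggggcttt
GABRR3, GRCh38.p14 minus strand, chr3:98035316-98035465: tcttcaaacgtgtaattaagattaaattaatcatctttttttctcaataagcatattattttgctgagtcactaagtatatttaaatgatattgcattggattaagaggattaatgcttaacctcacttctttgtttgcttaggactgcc
The GRIN2B, GRIN3A and GRIK3 stretches had a GC content of 73.3%, 68% and 74.7%, with 16, 12 and 18 CpG, and the GABRR3 stretch had 28.7% and 1 CpG. The GC box letters occurred once in GRIN2B and, as separate copies, 2 times in GRIK3.

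Glutamate receptor subunits were the members that stood highest above the empty vector library in every labelled knockdown library. GRIA1, GRIN2B and GRIN3A, an AMPA and a pair of NMDA subunits, were at least 2-fold higher in each of replicates 1, 2 and 3. They were 3 of the 30 members past 1 CPM, beside 3.65% of all 15880 genes past 1 CPM. None of the 30 was at least 2-fold lower in each, beside 2.72% of all genes. Over the 30 members, the median of the mean log2 difference in CPM from the empty vector library was 0.36, and over all 15880 genes it was -0.02. By library, the member medians were 0.41, 0.47 and 0.15, and those of all genes 0.03, 0.05 and -0.15. A difference above 0 in each labelled knockdown library was seen in 10 of 30 members (33.3%) and 30.1% of all genes.

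When the floor was set at 0.1 CPM, GRM7 was also at least 2-fold higher in each labelled knockdown library and GABRD at least 2-fold lower. That made 4 of 46 members higher and 1 of 46 lower, beside 6.04% and 3.89% of the 26586 genes. With 1 empty vector library there is no replicate check on the control side. The quasi-likelihood test of edgeR, whose spread comes from the labelled knockdown libraries alone, called 0 of 47 members tested and 0% of 26029 genes at an adjusted p of 0.05. At an unadjusted p under 0.05 the same test gave a smaller share of the members than of all genes. The Wald test of DESeq2 called 1 of 29 members tested, GRIN2B, beside 1.72% of 15725 genes.

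**Figure D2:**
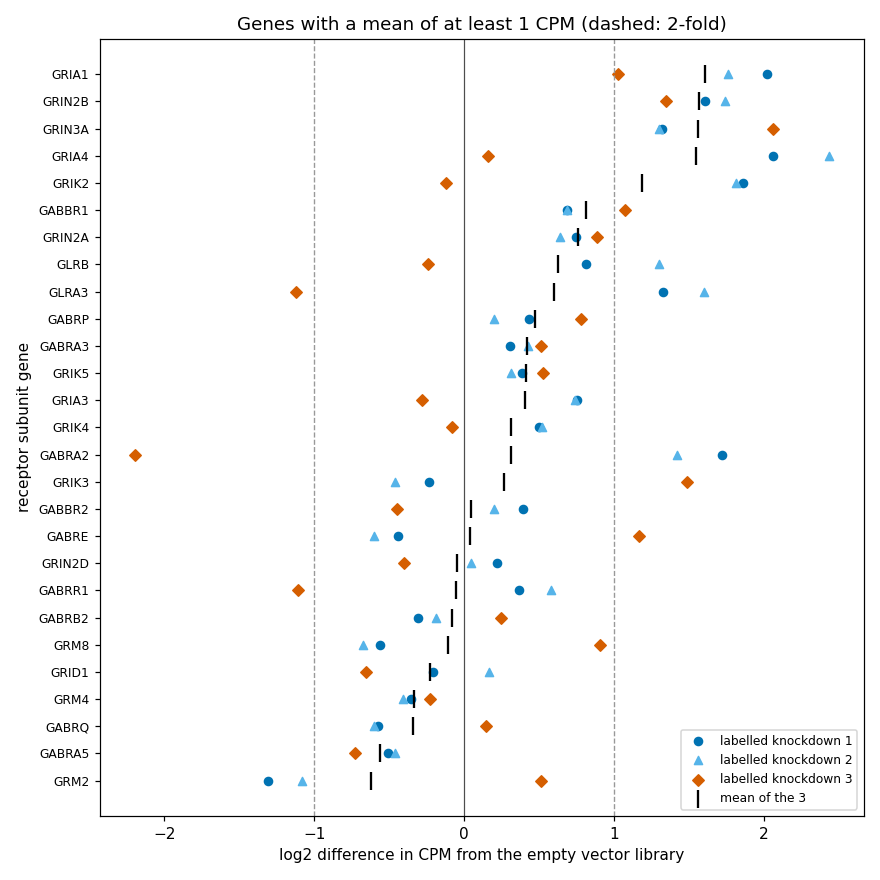
Log2 difference in CPM from the empty vector library for 27 members with a mean of at least 1 CPM, with a symbol for each labelled knockdown library, a bar for their mean and dashed lines at 2-fold. Only GRIA1, GRIN2B and GRIN3A have all 3 symbols beyond the upper line, and for many genes replicate 3 lies apart from the other two.

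Removing smooth trends of the log2 difference on transcript length and GC content ended these calls. The members were long, with a median longest transcript of 5823 nt beside 3519 nt for all genes tested. After removal, 0 of 30 members were higher and 0 lower by the same rule, beside 2.44% and 1.82% of 15485 genes, and the member median went from 0.36 to 0.004. GRIN2B, whose longest transcript has 30355 nt, then had log2 differences of 0.70, 0.88 and -0.27. Only 9 genes in the fit were that long or longer, GRIN2B among them, so its trend rested mostly on shorter genes. GRIA1 then had 1.79, 1.57 and 0.58, and GRIN3A 0.88, 0.92 and 1.34, so both still had each labelled knockdown library above the empty vector. GRIN2A changed sign, from a mean of 0.76 to -0.11. Whether the trends are technical was not tested.

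**Figure D3:**
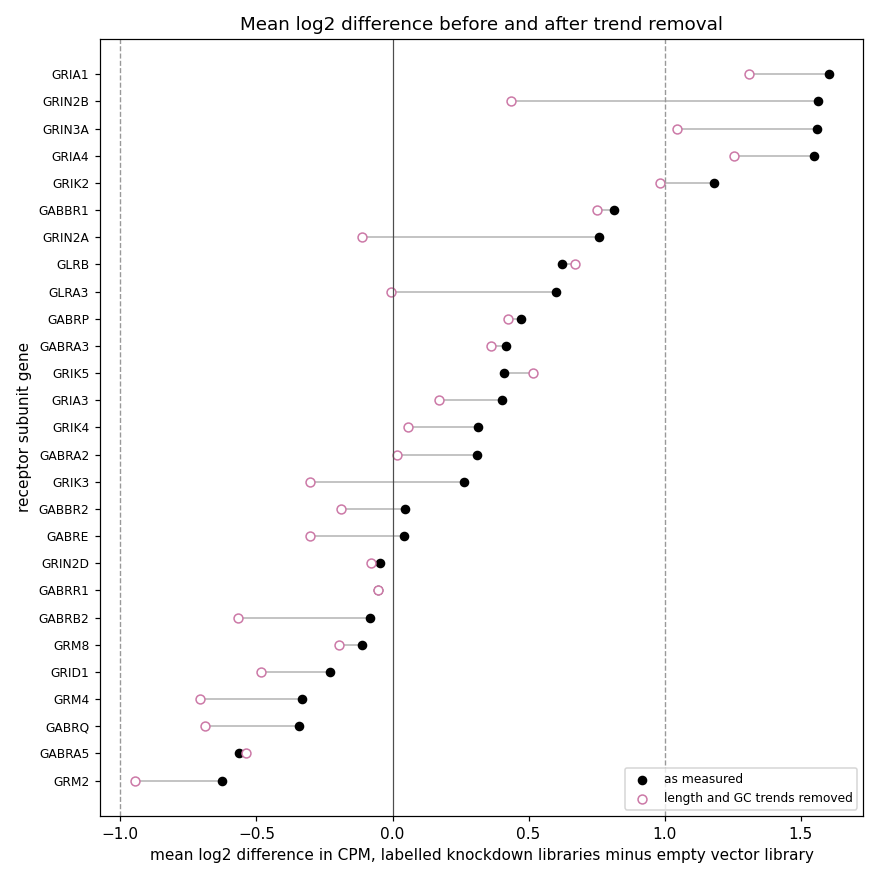
Mean log2 difference in CPM (labelled knockdown libraries minus empty vector library) of 27 members past 1 CPM, as measured (filled) and after removal of the length and GC trends (open). GRIN2B moves from 1.56 to 0.44 and GRIN2A from 0.76 to -0.11, while GRIA1 and GRIN3A stay above 1.

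NMDA receptors need glutamate and glycine together and pass calcium. The glutamate-binding subunits GRIN2A, GRIN2B and GRIN2D had higher levels per kilobase here than the obligatory subunit GRIN1, and GRIN2C had a lower one. GRIN2B (ENSG00000273079.7; chromosome 12, 13437942 to 13981957, minus strand), the subunit typical of early brain development, had 336, 2658, 2802 and 1112 counts, or 14, 42.7, 46.9 and 35.6 CPM. Every labelled knockdown library was above the empty vector library, and their mean was 41.7 ± 5.73 CPM (SD, n = 3). The ratios were 3.05 (95% interval 2.6 to 3.6), 3.35 (2.86 to 3.96) and 2.54 (2.14 to 3.04). All such intervals are exact binomial, on counts divided by 2 because both reads of a pair appear to be counted, and cover counting error only. The mean log2 difference of GRIN2B was 1.56 ± 0.20 (SD, n = 3), larger than the spread between the labelled knockdown libraries. Its exons share 263 and 546 bases with a pair of non-coding genes on the other strand, and the strand setting of the counting is not given in the sources used here.

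GRIN2A (ENSG00000183454.18; chromosome 16, 9753404 to 10182754, minus strand), the subunit that gains weight in the mature brain, stood at 19.3, 32.4, 30.1 and 35.6 CPM. It was above the empty vector library in all 3, by ratios of 1.68 (1.46 to 1.95), 1.56 (1.35 to 1.81) and 1.85 (1.58 to 2.16), short of 2-fold. Of the counts of GRIN2A and GRIN2B together, GRIN2B made up 42.1% in the empty vector library (37.2% to 47.1%, Clopper-Pearson) and 56.8%, 60.9% and 50% in replicates 1, 2 and 3. The interval of replicate 3, 47% to 53%, touched that of the empty vector library.

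GRIN3A (ENSG00000198785.7; chromosome 9, 101569353 to 101738580, minus strand), a glycine-binding subunit that lowers calcium flow, had 32, 211, 200 and 178 counts, or 1.33, 3.39, 3.35 and 5.7 CPM. Here replicate 3 was the highest, and no labelled knockdown library came near the empty vector level. The ratios were 2.54 (1.49 to 4.61), 2.51 (1.47 to 4.57) and 4.27 (2.49 to 7.8), and the mean log2 difference was 1.56 ± 0.43 (SD, n = 3).

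GRIN2D, a slowly closing subunit of early development and interneurons, stood at 5.17, 6.02, 5.33 and 3.91 CPM, and all 3 ratio intervals included 1. GRIN1, without which no NMDA receptor forms, had only 8, 67, 24 and 6 counts, or 0.333, 1.08, 0.402 and 0.192 CPM. It thus made up 0.821% of all NMDA subunit counts in the empty vector library (0.224% to 2.09%) and 1.25%, 0.465% and 0.236% in replicates 1, 2 and 3. GRIN2A and GRIN2B together made up 81.9%, 87.3%, 89.2% and 87.6%. Per kilobase of exon, the mean level was 0.0661 CPM for GRIN1, 1.56 for GRIN2A and 0.901 for GRIN2B. GRIN2C, a glutamate-binding subunit typical of the cerebellum, had 4 to 17 counts per library and a mean of 0.0233 CPM per kilobase. GRIN3B, the other glycine-binding subunit of its kind, had 3 to 12 counts.

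AMPA receptors carry fast excitation. GRIA1 (ENSG00000155511.18; chromosome 5, 153489615 to 153813869, plus strand), a subunit brought to synapses during plasticity, had 38, 409, 327 and 102 counts, or 1.58, 6.57, 5.48 and 3.27 CPM. All labelled knockdown libraries were above the empty vector library, replicate 3 least. Its ratios were 4.15 (2.59 to 7.03), 3.46 (2.15 to 5.9) and 2.06 (1.2 to 3.7), the last just past the 2-fold line. The mean log2 difference was 1.60 ± 0.52 (SD, n = 3).

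GRIA4, a subunit of early circuits and interneurons, stood at 1, 4.3, 5.59 and 1.12 CPM, high in replicates 1 and 2 and level with the empty vector library in replicate 3. Its ratios were 4.31 (2.38 to 8.54), 5.6 (3.12 to 11) and 1.12 (0.508 to 2.56). GRIA3 stood at 1.92, 3.26, 3.23 and 1.57 CPM, above the empty vector library in replicates 1 and 2 and not in replicate 3. GRIA2, the subunit that keeps calcium out of AMPA channels, had 0, 2, 2 and 0 counts. At these depths a floor of 3 counts is 0.125, 0.0482, 0.0503 and 0.096 CPM, so no difference in GRIA2 was detectable.

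**Figure D4:**
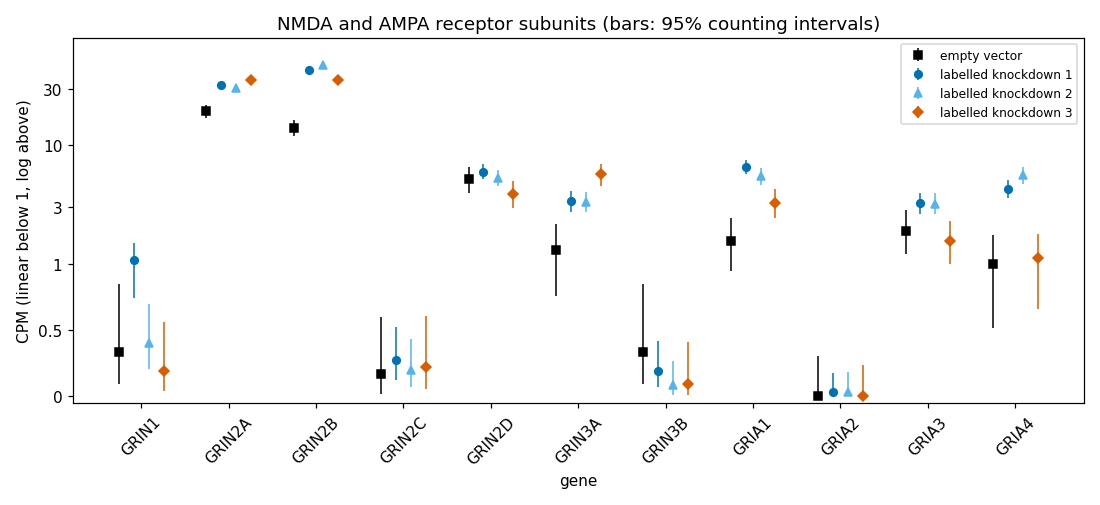
CPM of the NMDA and AMPA subunit genes in each library, with 95% counting intervals (axis linear below 1 CPM and logarithmic above). GRIN2B, GRIN3A and GRIA1 lie above the empty vector library in all 3 labelled knockdown libraries, GRIA4 in replicates 1 and 2, and GRIN1 and GRIA2 stay near the bottom.

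Kainate receptors modulate release and excitability, and their subunits GRIK3 and GRIK2 split replicate 3 from the others in opposite directions. GRIK3 (ENSG00000163873.10; chromosome 1, 36795527 to 37034129, minus strand), which forms channels of low glutamate sensitivity, stood at 32.2, 27.4, 23.4 and 90.1 CPM. It was slightly below the empty vector library in replicates 1 and 2, with ratios of 0.851 (0.753 to 0.962) and 0.726 (0.64 to 0.824), and well above it in replicate 3, with a ratio of 2.8 (2.5 to 3.14). GRIK2, the main kainate subunit of the brain, showed the reverse, with 2.58, 9.48, 9.2 and 2.37 CPM. Its ratios were 3.67 (2.53 to 5.5), 3.56 (2.45 to 5.34) and 0.917 (0.554 to 1.53). GRIK3 thereby made up 59.8% of kainate subunit counts in the empty vector library, 44.2% and 40.9% in replicates 1 and 2, and 76.5% in replicate 3.

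GRIK5 and GRIK4 bind glutamate tightly but form channels only with the other kainate subunits. GRIK5 stood at 13.7, 17.9, 17 and 19.7 CPM, above the empty vector library in each by ratios of 1.31 (1.1 to 1.57), 1.24 (1.04 to 1.49) and 1.44 (1.19 to 1.76). GRIK4 stood at 4.87, 6.91, 7.02 and 4.61 CPM, with replicate 3 level with the empty vector library. GRIK1 was low throughout, with 12 to 32 counts. GRID1, a delta subunit, which binds cerebellins and organises synapses, stood at 1.08, 0.932, 1.22 and 0.672 CPM, and all 3 of its ratio intervals included 1.

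Among metabotropic glutamate receptors, only inhibitory types that couple to Gi proteins passed 1 CPM. GRM4, a presynaptic receptor, stood at 14, 10.9, 10.5 and 11.9 CPM, with ratios of 0.78 (0.647 to 0.944), 0.752 (0.621 to 0.912) and 0.853 (0.689 to 1.06). GRM2, another presynaptic receptor, stood at 6.5, 2.6, 3.05 and 9.28 CPM, and GRM8 at 4.87, 3.29, 3.03 and 9.16. Both were lower than the empty vector library in replicates 1 and 2 and higher in replicate 3. The ratios of GRM2 were 0.4 (0.29 to 0.554), 0.469 (0.343 to 0.643) and 1.43 (1.08 to 1.91), and those of GRM8 were 0.676 (0.485 to 0.948), 0.622 (0.443 to 0.88) and 1.88 (1.38 to 2.59).

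GRM7, a low-affinity receptor of presynaptic active zones, had 8, 50, 55 and 46 counts, or 0.333, 0.803, 0.921 and 1.47 CPM. Its log2 differences were 1.16, 1.35 and 2.00, but the ratio intervals of replicates 1 and 2, 0.832 to 9.53 and 0.965 to 10.9, included 1, and that of replicate 3 was 1.51 to 17.6. GRM5, which couples to Gq proteins, was scarce, with 2 to 6 counts per library. GRM3 had 6 to 29 counts and GRM6, the receptor of retinal ON bipolar cells, 14 to 40.

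GABA-A channels are pentamers, mostly of alpha, beta and gamma subunits. GABRA5 (ENSG00000186297.12; chromosome 15, 26866363 to 26949207, plus strand), an alpha subunit found mostly outside synapses, stood at 86.7, 61.1, 63 and 52.4 CPM. It was lower in each labelled knockdown library by ratios of 0.704 (0.652 to 0.76), 0.726 (0.673 to 0.784) and 0.605 (0.551 to 0.663). On the log2 scale the mean difference was -0.56 ± 0.14 (SD, n = 3), short of 2-fold and larger than the spread between labelled knockdown libraries.

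Of the gamma subunits, GABRG3 had 16 to 45 counts. GABRG1 had 0, 18, 16 and 0 counts. With 0 set to 3 counts, replicates 1 and 2 stood at 2.31 and 2.14 times that floor. At 6 counts, the same floor for read pairs, they stood at 1.16 and 1.07 times it. The lower ends of the ratio intervals of GABRG1 in these replicates, 0.761 and 0.686, lay below 1, so both intervals included 1.

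Further alpha and beta subunits stood well below GABRA5. GABRA3, an alpha subunit of the developing brain, stood at 4.04, 5.01, 5.44 and 5.79 CPM, and the ratio intervals of replicates 1 and 2 included 1. GABRA2, a synaptic alpha subunit, stood at 0.75, 2.57, 2.08 and 0.128 CPM, with ratios of 3.43 (1.72 to 7.77), 2.77 (1.37 to 6.34) and 0.171 (0.018 to 0.825). GABRB2, the main beta subunit of the adult brain, stood at 6.12, 4.95, 5.36 and 7.27 CPM, and all its intervals included 1. GABRA4 had 2 to 22 counts, GABRB1 had 0 to 8 and GABRA6, typical of cerebellar granule cells, 0 to 4.

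GABA-A subunits outside the alpha, beta, gamma and rho groups gave no common direction. GABRQ stood at 12.2, 8.14, 8.01 and 13.5 CPM, with ratios of 0.669 (0.544 to 0.826), 0.658 (0.534 to 0.814) and 1.11 (0.893 to 1.38). GABRE stood at 3.79, 2.78, 2.48 and 8.58 CPM, and in replicate 3 it was 2.26 times the empty vector level (1.61 to 3.24). GABRP, known from the uterus and other non-neural tissues, stood at 4.62, 6.26, 5.33 and 7.97 CPM, with a ratio of 1.72 in replicate 3 (1.25 to 2.41). GABRD, which forms receptors outside synapses that give tonic inhibition, had 22, 24, 26 and 6 counts, or 0.916, 0.385, 0.436 and 0.192 CPM. Its log2 differences were -1.16, -1 and -2.02, with replicate 2 at the 2-fold line, and the intervals of the ratios in replicates 1 and 2, 0.17 to 1.05 and 0.196 to 1.17, included 1.

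The rho subunits form GABA channels best known from the retina. GABRR1 stood at 4.87, 6.3, 7.32 and 2.24 CPM, with ratios of 1.29 (0.96 to 1.76), 1.5 (1.12 to 2.04) and 0.46 (0.293 to 0.711). GABRR2, its neighbour on chromosome 6, had 6, 16, 25 and 59 counts, highest in replicate 3 where GABRR1 was lowest. GABRR3 had a single count in replicate 2. The GABA-B receptor needs both of its subunits: GABBR1 binds GABA and GABBR2 couples to the G protein. GABBR1 stood at 6.5, 10.5, 10.5 and 13.7 CPM, higher in each labelled knockdown library by ratios of 1.61 (1.26 to 2.09), 1.61 (1.26 to 2.1) and 2.11 (1.62 to 2.77). Its exons share 722 bases with UBD on the same strand. GABBR2 stood at 6.08, 7.98, 6.99 and 4.45 CPM, on both sides of the empty vector level.

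Glycine receptors carry inhibition in the spinal cord and brainstem, and their transcripts were low. GLRB, the beta subunit that anchors the channel to gephyrin, stood at 1.33, 2.38, 3.35 and 1.12 CPM, with ratios of 1.78 (1.03 to 3.28), 2.51 (1.47 to 4.57) and 0.841 (0.402 to 1.77). GLRA3, an alpha subunit of pain pathways, stood at 0.75, 1.94, 2.36 and 0.32 CPM, with ratios of 2.59 (1.28 to 5.94), 3.15 (1.57 to 7.17) and 0.427 (0.112 to 1.42). Both were higher in replicates 1 and 2 and not in replicate 3. GLRA1, the main adult alpha subunit, had 0 to 10 counts, GLRA2, the fetal alpha subunit, 2 to 17, and GLRA4 had 20 to 48.

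Replicate 3 stood apart from replicates 1 and 2 in these genes. The empty vector library differed by 2-fold from replicates 1, 2 and 3 in 9, 10 and 10 of the 30 members past 1 CPM, beside 18.8%, 17.1% and 27.2% of all genes. Between replicates 1 and 2, 0 of the 30 differed by 2-fold, beside 0.302% of all genes. Between replicates 1 and 3 it was 13 of 30 (43.3%, beside 21.6%), and between replicates 2 and 3 also 13 (43.3%, beside 22.9%). Replicate 3 was at least 2-fold below both other replicates in 9 members, among them GABRA2, GABRR1, GLRA3, GLRB, GRIA3, GRIA4 and GRIK2. That is 30% of members, beside 13.1% of all genes. It was at least 2-fold above both in 4 members, GABRE, GRIK3, GRM2 and GRM8, 13.3% beside 6.2%. Left out, the rule gave 8 of 30 members higher in both remaining libraries, among them GABRA2, GLRA3, GRIA1, GRIA4, GRIK2, GRIN2B and GRIN3A, beside 9.06% of 15728 genes. It gave 1 lower, GRM2, beside 5.97%. In edgeR without replicate 3, 25 of 46 members were called, 19 of them higher, but so were 44.7% of 25016 genes.

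Some of the neuron markers also differed between replicate 3 and the others, and some did not. Of the 10, 5 were at least 2-fold above the empty vector library in replicates 1 and 2 but not in replicate 3: DCX, ELAVL4, STMN2, SYP and SYT1. STMN2, for example, stood at 0.333, 2.71, 2.38 and 0.512 CPM, and SYP at 5.29, 17.7, 18.7 and 3.97. MAP2 was at least 2-fold above in all 3 and highest in replicate 3, with 9.16, 24, 22.8 and 34.5 CPM. TUBB3, at 1.12, 1.32, 1.52 and 2.02 CPM, was also highest in replicate 3. SNAP25 stood between 4.96 and 5.35 CPM, GAP43 between 39.4 and 61, and RBFOX3 was lower in each labelled knockdown library, at 17.7, 12.3, 12.8 and 6.59 CPM. The pluripotency sum was lowest in replicate 3. The part of these differences in the receptor levels was not tested.

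**Figure D5:**
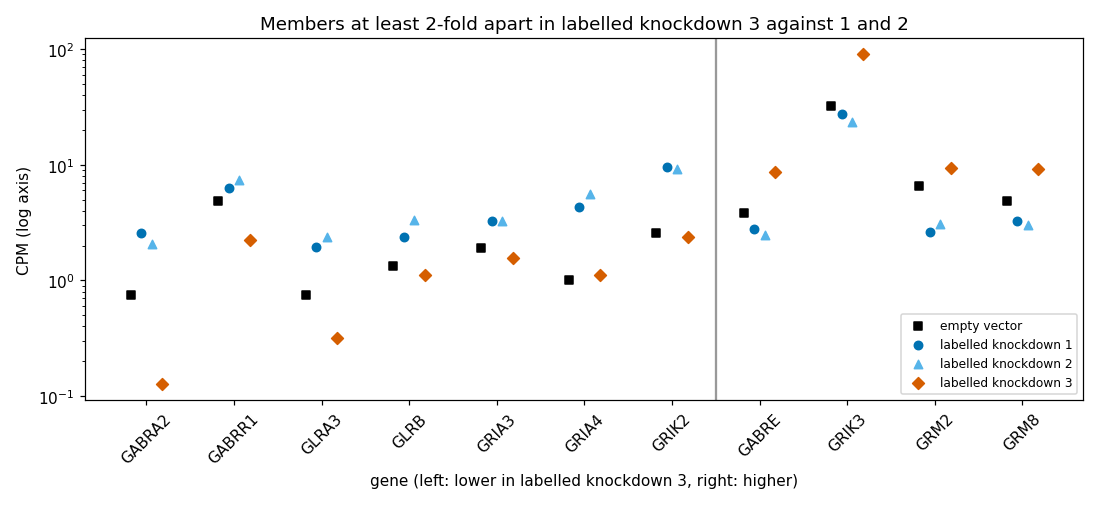
CPM (log axis) in each library of 11 members at least 2-fold apart in replicate 3 against both replicates 1 and 2, with 7 lower ones on the left and 4 higher ones on the right. Replicates 1 and 2 lie close together for each gene, and replicate 3 lies below or above both.

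Most GABA-A subunit genes lie in clusters, some of which keep alpha, beta and gamma genes together, and neighbours in a cluster did not always share a pattern. On chromosome 15, GABRA5 was lower in all 3 labelled knockdown libraries, and GABRG3 had log2 differences of 0.11, 0.01 and 0.30. The GABRG3 counts were low, and its ratio intervals of 0.467 to 2.81, 0.424 to 2.64 and 0.48 to 3.48 held the ratios of GABRA5. That contrast is therefore within counting error. In the chromosome 4 cluster, 46035769 to 47426444, GABRA2 was above the empty vector level in replicates 1 and 2. GABRG1 had counts in replicates 1 and 2 alone, with ratio intervals that included 1. GABRA4 had 2, 20, 22 and 2 counts, and GABRB1 had counts in replicates 2 and 3 alone. On chromosome X, GABRE and GABRQ were below the empty vector library in replicates 1 and 2, and GABRA3 was above it. The ratio intervals of GABRA3 in these replicates, and that of GABRE in replicate 1, included 1.

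Of 68 genes whose products assemble, anchor, supply or clear these receptors and transmitters, 54 passed 1 CPM. There were 2 of 54 higher by at least 2-fold in each labelled knockdown library, beside 3.65% of all genes, and 1 of 54 lower, beside 2.72%. These counts are close to the shares over all genes. The 3 genes are all glutamate receptor partners. SHISA9, an auxiliary protein of AMPA receptors, stood at 19.9, 66.1, 64.1 and 69.4 CPM, with ratios of 3.32 (2.9 to 3.81), 3.22 (2.81 to 3.7) and 3.48 (3.03 to 4.02). CACNG8, another AMPA auxiliary subunit, stood at 0.75, 2.92, 2.04 and 3.14 CPM, with ratios of 3.9 (1.97 to 8.8), 2.73 (1.35 to 6.24) and 4.18 (2.03 to 9.69). NSG1, an endosomal protein that takes part in AMPA receptor recycling, stood at 29.5, 11.1, 10.9 and 7.01 CPM, with ratios of 0.377 (0.324 to 0.439), 0.369 (0.317 to 0.43) and 0.238 (0.19 to 0.295). All 3 also passed the rule after removal of the length and GC trends, with mean log2 differences of 1.33, 1.24 and -1.66.

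By list, 20 of 26 glutamate receptor partners passed 1 CPM, with a median log2 difference of -0.11. No gene passed the rule among 11 inhibitory receptor partners (median 0.02), 11 genes of transmitter synthesis and breakdown (-0.19) or 12 transmitter transporters (0.07). Over the 54 genes the median was -0.13, beside -0.02 for all genes tested.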

How the data were processed

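A KAPA kit with ribosomal depletion and dUTP strand marking was used on total RNA, per the labels' protocols. The authors deposited raw counts per gene, 1 table per library. The submitters' processing notes name STAR 2.7.11b, featureCounts 2.0.6, DESeq2 and the hg38 build, without strand or pair settings. The columns of counts are called NT2_Lacz_Control and GKAP_KIF27_Set, per the file headers, and not by the names in the labels, so the series record was used to tie tables to samples. Between 65.2% and 68% of nonzero counts were even. Coordinates are those of GENCODE 29 on GRCh38, and 19 members share exon bases with another gene.

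CPM used edgeR 4.0.16 in R 4.3.3 with TMM factors of 0.953, 0.99, 0.969 and 1.09 and a prior count of 2 for log2 values. A gene was called where all 3 labelled knockdown libraries differed from the empty vector by a log2 CPM of 1 or more to the same side, at a mean of 1 CPM. edgeR (filterByExpr, Benjamini-Hochberg) and DESeq2 1.42.0 gave numbers of calls only. The rule, both tests and the trend removal (lowess, span 0.3) were tested on simulated data. Some members are counted in the totals but not reported here by name. The other members past 1 CPM, members called at 0.1 CPM, the top of each class and called partners were named. Members and lists were chosen with earlier results of these data known.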

Additional observations from a re-analysis of the deposited data

How the results depend on the processing

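The single empty vector library and the low counts of the members limit these results. The 3 members counted as higher stayed 3 under DESeq2 size factors, total counts, TMM factors from all genes (chosen after seeing the data) and a prior count of 0.5, were 2 with a prior count of 5 and 5 with a 1.5-fold rule, and were 0 with the length and GC trends removed, where the member median was 0.004. A floor of 0.1 CPM gave 1 member lower, 4 partner genes higher and 3 lower; no filter gave 1, 5 and 3; the 1.5-fold rule gave 6 partner genes higher and 5 lower. Leaving out each labelled knockdown library gave 3 to 8 members higher, 0 to 1 lower, 2 to 7 partner genes higher, 1 to 4 lower and 0 to 25 members called by edgeR, the upper ends without replicate 3. DESeq2 called 1 member. Of the mean log2 differences of the 30 members, 6 moved by over 1 SD with trends removed, among them GABRB2 (-0.57), GRIN2A (-0.11, a changed sign), GRIN2B (0.44), GRIN3A (1.05) and GRM4 (-0.71). Under total counts 1 did. The causes were not tested. No paired analysis was possible because there is just 1 empty vector library.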

Other observations

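GAD1, an enzyme that makes GABA, was chosen here after its values were seen. It stood at 7.91 CPM in the empty vector library and at 7.93, 8.24 and 32.3 CPM in labelled knockdown replicates 1, 2 and 3. Replicate 3 alone was thus high, 4.08 times the empty vector level (95% counting interval 3.27 to 5.14). GAD2, which also makes GABA, did not share this pattern. It had 0, 50, 52 and 6 counts, or 0, 0.803, 0.871 and 0.192 CPM, highest in replicates 1 and 2. GLDC, which breaks down glycine and was likewise chosen after its values were seen, stood at 108, 71.3, 69.7 and 56.9 CPM in the same order, lower in each labelled knockdown library by less than 2-fold. The vesicular transporters SLC17A6 for glutamate and SLC32A1 for GABA and glycine had at most 12 and 20 counts in any library and 0 in replicate 3. Of the other vesicular glutamate transporters, SLC17A7 had 32, 57, 54 and 12 counts and SLC17A8 had 0, 2, 0 and 0.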
